A study of Mus musculus with 12 samples.

Results

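Circadian clock output genes were followed through bulk RNA sequencing in the gonadal white fat (GWAT) of mice that lack HOIP in adipocytes. HOIP, encoded by Rnf31, is the catalytic subunit of the complex that builds linear ubiquitin chains. The 10 genes Nr1d1, Nr1d2, Dbp, Tef, Hlf, Per1, Per2, Per3, Ciart and Cry2 were chosen by their symbols, out of 55281 annotated genes in the table, and 10 of 10 passed the filter on low counts. The mice were HoipA-KO (Hoip fl/fl AdipoQ.Cre+) or WT (Hoip fl/fl AdipoQ.Cre-) males, so that both genotypes carried the floxed allele, and WT animals were littermates without Cre. They were put at 6 weeks of age on a control diet (CD) with 14% fat by the labels or on a high-fat diet (HFD) with 60% fat, and the tissue was taken after 16 weeks of diet, at 22 to 24 weeks of age. Each of the 4 groups has 3 libraries, named replicates 1 to 3, and each library holds RNA pooled from 3 mice. Adipoq-Cre acts in mature adipocytes, whereas the libraries were made from whole tissue. No source used here gives the hour of the day at which tissue was taken, nor says whether the pools of a group came from the same cohort or day.

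The mammalian clock is a feedback loop of transcription. The activators CLOCK and BMAL1 (gene symbol Arntl here), or NPAS2 in place of CLOCK, bind E-boxes and switch on Per, Cry, Nr1d and Dbp genes. PER and CRY proteins and CIART then repress the activators, REV-ERB proteins encoded by Nr1d1 and Nr1d2 repress Arntl through ROR elements (ROREs), and the factors encoded by Dbp, Tef and Hlf act on D-boxes. In adipose tissue as in other peripheral organs these transcripts rise and fall within each day, Arntl and Npas2 in roughly the opposite phase to Dbp and Nr1d1. Levels at a single collection time therefore carry both the amplitude and the phase of the rhythm.

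Promoter sequences are shown for the 3 members that passed the test below (Nr1d1, Cry2 and Hlf), for Ciart and Per3, which hold several motifs, and for Arntl, the gene that REV-ERB proteins repress. They are RefSeq windows on GRCm38.p6 from 250 bases before to 50 bases after an annotated start site, written 5′ to 3′ on the gene's strand, with the matched motifs in capitals. Both strands were searched for the E-box CACGTG, its variant CACGTT, which reads AACGTG on the other strand, the D-boxes TTATGTAA and TTACGTAA, the RORE core TAGGTCA and the cAMP response element (CRE) TGACGTCA, none of which overlap in these windows. Nr1d1 (chr11:98775328-98775627, minus strand) has an E-box variant whose first base lies at -28 from the start site, and Cry2 (chr2:92434020-92434319, minus strand) has one at -166. Hlf (chr11:90390868-90391167, minus strand) has a CRE at -9. Ciart (chr3:95882179-95882478, minus strand) has E-boxes at -116, -58 and -44, and Per3 (chr4:151044616-151044915, minus strand) has D-boxes at -205 and -158. Arntl is shown by the later of its start sites in the table (chr7:113207261-113207560, plus strand), with a RORE core at 31 after the start. The window of its earlier start site (chr7:113207215-113207514) holds none of these motifs.
Nr1d1: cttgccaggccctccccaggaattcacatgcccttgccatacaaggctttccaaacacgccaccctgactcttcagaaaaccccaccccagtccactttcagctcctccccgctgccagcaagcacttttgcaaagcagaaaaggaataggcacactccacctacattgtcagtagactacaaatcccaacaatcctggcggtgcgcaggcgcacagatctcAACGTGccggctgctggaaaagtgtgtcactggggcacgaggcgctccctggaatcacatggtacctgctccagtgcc
Cry2: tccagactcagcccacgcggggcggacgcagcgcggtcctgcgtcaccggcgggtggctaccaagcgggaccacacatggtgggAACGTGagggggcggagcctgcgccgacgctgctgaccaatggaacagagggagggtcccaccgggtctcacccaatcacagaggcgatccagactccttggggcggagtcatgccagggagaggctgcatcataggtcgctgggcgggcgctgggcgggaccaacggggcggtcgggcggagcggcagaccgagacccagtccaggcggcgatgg
Hlf: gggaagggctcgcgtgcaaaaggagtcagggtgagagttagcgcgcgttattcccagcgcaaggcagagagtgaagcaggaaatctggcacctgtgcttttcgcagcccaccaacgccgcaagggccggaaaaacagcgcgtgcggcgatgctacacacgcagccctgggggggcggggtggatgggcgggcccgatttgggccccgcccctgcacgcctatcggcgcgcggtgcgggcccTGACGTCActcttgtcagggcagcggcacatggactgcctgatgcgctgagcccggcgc
Ciart: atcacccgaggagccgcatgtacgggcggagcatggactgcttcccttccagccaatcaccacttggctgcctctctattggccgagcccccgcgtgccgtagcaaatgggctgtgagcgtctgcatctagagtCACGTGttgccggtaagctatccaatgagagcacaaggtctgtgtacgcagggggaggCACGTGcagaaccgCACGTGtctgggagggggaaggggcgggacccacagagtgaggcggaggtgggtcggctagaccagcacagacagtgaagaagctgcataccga
Per3: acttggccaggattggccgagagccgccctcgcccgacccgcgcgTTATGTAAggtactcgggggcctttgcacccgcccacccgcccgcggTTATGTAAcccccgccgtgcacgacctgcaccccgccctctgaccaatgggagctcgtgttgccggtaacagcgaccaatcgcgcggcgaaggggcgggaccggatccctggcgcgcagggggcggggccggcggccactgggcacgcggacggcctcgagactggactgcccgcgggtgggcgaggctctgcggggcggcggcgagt
Arntl: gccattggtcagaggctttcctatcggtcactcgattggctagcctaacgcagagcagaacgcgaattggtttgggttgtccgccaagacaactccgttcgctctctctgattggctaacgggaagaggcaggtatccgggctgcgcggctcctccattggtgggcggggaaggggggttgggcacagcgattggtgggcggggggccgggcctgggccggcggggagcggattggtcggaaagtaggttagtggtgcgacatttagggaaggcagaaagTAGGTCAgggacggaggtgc
Windows were found for 9 of 10 members, 11 windows in all, and Per2 was not matched. Those of Nr1d2 and Dbp held none of the motifs searched. An E-box or its variant stood in a window of 5 members, namely Nr1d1, Tef, Per1, Ciart and Cry2. Of all 32851 windows in the table, 11.4% held such a match. This share is by window and not by gene, and Tef and Per1 have additional windows. Single motifs were found in 7.15% of all windows for the E-box, 4.68% for its variant, 0.938% for TTATGTAA, 0.119% for TTACGTAA, 2.61% for the RORE core and 1.79% for the CRE. These are matches of letters and were not tested as binding sites.

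The libraries held 30513500 to 60540260 estimated counts, so that 3 counts, taken as the floor, corresponded to 0.0496 to 0.0983 CPM, the estimated counts of a gene scaled to a common library total. Ciart, with the fewest counts of the members, had 40 to 358 counts per library, well above that floor. Values below are CPM after TMM normalization over 12 libraries. Tests are edgeR's quasi-likelihood test on 11 libraries, without WT CD replicate 3, which the deposited comparisons also leave out. The p-values are adjusted by Benjamini-Hochberg over 18427 genes at a threshold of 0.05, and errors of log2 fold changes are standard errors. Rnf31 itself ranged from 12.9 to 22.1 CPM over the 12 libraries, with overlapping genotypes, and in whole tissue this does not check a deletion in adipocytes. Adipocyte markers summed to 18380 to 60630 CPM in WT mice on CD and 30180 to 37590 on HFD, against 14160 to 14330 CPM in HoipA-KO mice on CD and 12020 to 14100 on HFD, and 9 of the 10 markers fell in HoipA-KO on each diet. Macrophage markers summed to 501.7 to 749.5 CPM in WT mice on CD and 1991 to 5964 on HFD, against 9601 to 12710 CPM in HoipA-KO mice on CD and 7451 to 11610 on HFD, and 9 of these 10 markers rose in HoipA-KO on CD and 4 on HFD. Of all genes tested, 18.8% were called lower and 18.9% higher in HoipA-KO on CD, and 11.8% were called in either direction on HFD. In bulk tissue, fewer cells of a type and less RNA per cell cannot be told apart. Several libraries carried transcripts of neighbouring organs. WT CD replicate 2 had 12990 CPM of Crisp1, an epididymal gene, HoipA-KO HFD replicate 1 had 1303 CPM of it, and WT CD replicate 3 had 3150 CPM of Prm2, a sperm protamine gene. The 6 epididymal markers summed to 0.827 to 15460 CPM over the WT CD pools, and the 8 testis germ cell markers to 23.7 to 8686 CPM.

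On CD, 3 of the 10 output genes were lower in HoipA-KO than in WT, namely Nr1d1, Hlf and Cry2, and the estimate was below 0 for 10 of 10. Over all genes tested 18.8% were called lower in this comparison, so that 3 of 10 is not far from the share of all genes. The median log2 fold change of the 10 was -1.23, against -0.06 for all genes. With all 12 libraries, 2 of the 10 were called lower, namely Nr1d1 and Cry2, against 19.1% of 18074 genes. WT CD replicate 1 was the highest of the 12 libraries for 9 of the 10 members and decided several of these values.

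**Figure D1:**
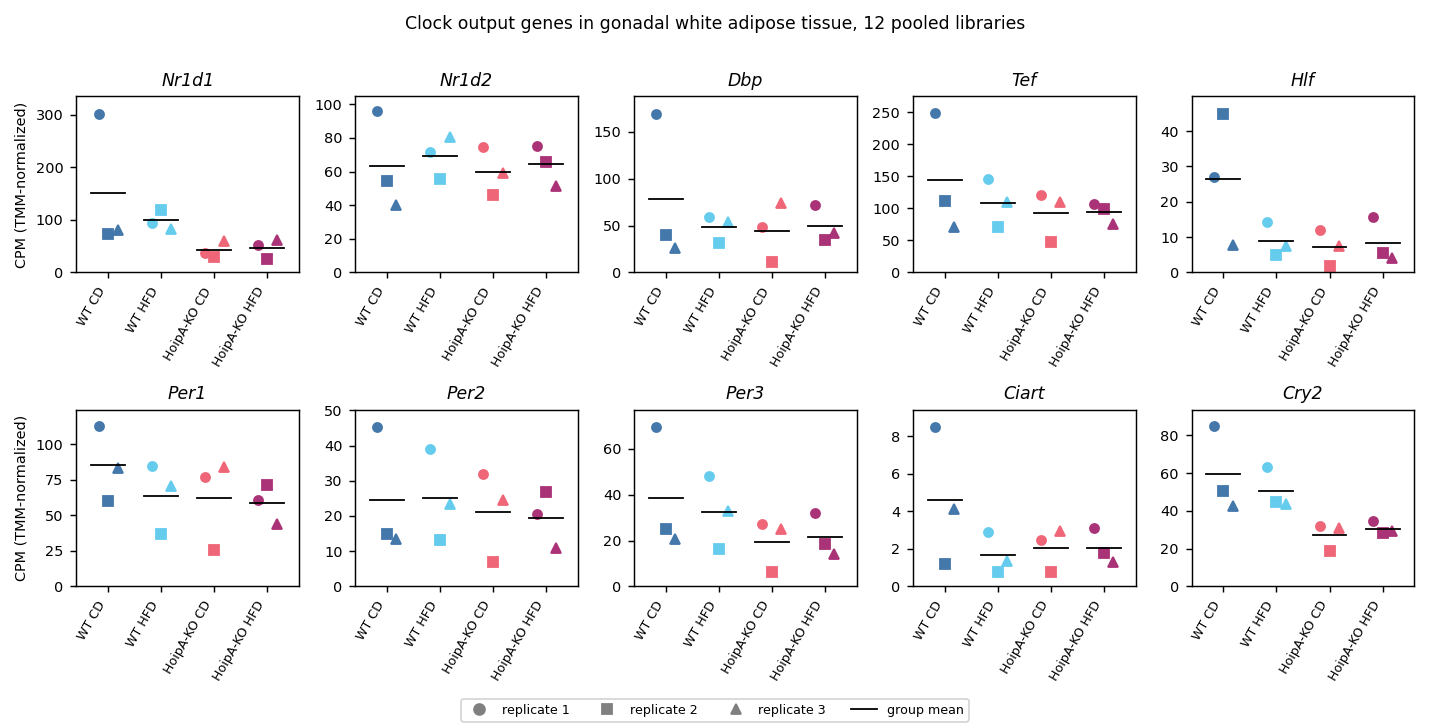
CPM of each output gene (vertical axes, linear from 0, a scale of its own for each gene) in the 12 pooled libraries of the 4 groups, with the replicate by symbol and the group mean as a line. WT CD replicate 1 lies highest for 9 of the 10 genes, and the HoipA-KO points lie below all WT points of the same diet for Nr1d1 and Cry2.

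Nr1d1 encodes REV-ERBα, a nuclear receptor that represses transcription and links the clock to lipid metabolism and adipogenesis. It lies at chr11:98767932-98775333 on the minus strand (GRCm38). Its level in WT CD was 302.4, 73.3 and 81.0 CPM in replicates 1 to 3, and in HoipA-KO CD 36.2, 29.0 and 60.7 CPM. On HFD it was 94.8, 119 and 83.7 CPM in WT and 52.1, 26.6 and 61.5 CPM in HoipA-KO. Every HoipA-KO pool was therefore below every WT pool of its diet, while WT CD replicate 1 stood far above the other WT pools. From highest to lowest, group means were 152 ± 130.1 CPM for WT mice on CD, 99.2 ± 18.1 on HFD, and then 46.7 ± 18.1 for HoipA-KO mice on HFD and 42.0 ± 16.6 on CD (SD, n = 3), with neighbours of the same genotype not differing beyond their spread. On CD, Nr1d1 was 4.43-fold lower in HoipA-KO (log2 fold change -2.15 ± 0.56, 95% interval -3.40 to -0.90, adjusted p = 0.0149). Without WT CD replicate 1 the difference was -0.72 (adjusted p = 0.261), without HoipA-KO CD replicate 1 it was -2.05 (adjusted p = 0.0518) and without HoipA-KO CD replicate 2 it was -1.96 (adjusted p = 0.0545). With all 12 libraries it was -1.87 ± 0.57 (adjusted p = 0.0289).

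On HFD, Nr1d1 had a log2 fold change of -1.09 ± 0.51 (95% interval -2.22 to 0.05, adjusted p = 0.176), and thus did not pass the threshold although the pools did not overlap. Over all genes, 19.5% on CD and 23.1% on HFD had every HoipA-KO pool below every WT pool, so that 2 of the 10 members, Nr1d1 and Cry2, is about the share of all genes. The exons of Nr1d1 share 263 of 3077 bases with Thra, a thyroid hormone receptor gene on the opposite strand. The library kit keeps the strand, and the sources used here do not say which strand setting was used in counting. Thra itself ranged from 39.1 to 91.4 CPM, with its highest value in WT CD replicate 1 and its lowest in HoipA-KO CD replicate 2.

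Nr1d2 encodes REV-ERBβ, the paralog of REV-ERBα. In WT mice it was 96.0, 54.3 and 40.1 CPM on CD and 71.9, 55.9 and 80.4 CPM on HFD, and in HoipA-KO mice 74.4, 45.9 and 59.2 CPM on CD and 75.4, 65.8 and 51.7 CPM on HFD. The 4 groups overlapped, and the highest library was 2.39 times the lowest, compared with 11.4 times for Nr1d1. On CD the log2 fold change was -0.30 ± 0.29 (95% interval -0.95 to 0.35, adjusted p = 0.441). It turned to 0.22 without WT CD replicate 1. A test of whether the paralogs differ from each other in their response was not run.

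Hlf, a PAR bZIP transcription factor, had the widest range of the members, 23.3 times from the lowest to the highest library. It lies at chr11:90336536-90390895 on the minus strand (GRCm38). In WT CD it was 27.1, 44.9 and 7.79 CPM, and in HoipA-KO CD 12.2, 1.93 and 7.37 CPM. The WT CD pools used in the test lay above the HoipA-KO CD pools, whereas WT CD replicate 3 lay among them. On HFD the values were 14.3, 5.00 and 7.52 CPM in WT and 15.6, 5.38 and 4.19 CPM in HoipA-KO, with full overlap. On CD Hlf was 4.89-fold lower in HoipA-KO (log2 fold change -2.29 ± 0.75, 95% interval -3.96 to -0.62, adjusted p = 0.0369). With all 12 libraries the value was -1.88 ± 0.81 and no longer passed (adjusted p = 0.0924), with WT CD replicates 1 and 3 it was -1.31 (adjusted p = 0.248), and without WT CD replicate 2 it was -1.93 (adjusted p = 0.128). Leaving out HoipA-KO CD replicate 2 gave -1.85 (adjusted p = 0.0775) and leaving out HoipA-KO CD replicate 3 gave -2.42 (adjusted p = 0.0757). The highest Hlf value, 44.9 CPM, came from WT CD replicate 2, the library with 12990 CPM of Crisp1, and the highest of HoipA-KO HFD, 15.6 CPM, came from replicate 1 with 1303 CPM of Crisp1. The part of epididymal transcripts in the Hlf values was not tested.

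Dbp and Tef are the other PAR bZIP genes, and Dbp is a direct E-box target with one of the strongest rhythms of the output genes. Dbp in WT mice was 169, 40.1 and 26.4 CPM on CD and 59.2, 31.0 and 54.0 CPM on HFD, and in HoipA-KO mice 48.3, 11.3 and 74.5 CPM on CD and 71.8, 35.1 and 42.5 CPM on HFD. Tef in WT mice was 249, 112 and 71.8 CPM on CD and 146, 70.9 and 110.3 CPM on HFD, and in HoipA-KO mice 121, 47.6 and 110.3 CPM on CD and 107, 98.9 and 75.2 CPM on HFD. In both genes WT CD replicate 1 was the highest library and HoipA-KO CD replicate 2 the lowest, and the groups overlapped. The log2 fold change on CD was -1.23 ± 0.73 for Dbp (95% interval -2.87 to 0.41, adjusted p = 0.211), and without WT CD replicate 1 it was 0.24. For Tef it was -0.94 ± 0.45 (95% interval -1.95 to 0.07, adjusted p = 0.126), and it passed when WT CD replicate 2 was left out (-1.43, adjusted p = 0.0434). Of the exon bases of Dbp, 539 of 2993 are shared with Sphk2 on the opposite strand, and of those of Tef 193 of 7867 are shared with Gm17597.

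Cry2 encodes a cryptochrome, the partner of PER proteins in repression, and of the 10 members had the smallest standard error relative to its difference on CD. It lies at chr2:92403646-92434043 on the minus strand (GRCm38). In WT CD it was 84.8, 50.6 and 42.7 CPM, and in HoipA-KO CD 32.1, 18.7 and 31.1 CPM. In WT HFD it was 63.1, 44.7 and 43.7 CPM, and in HoipA-KO HFD 34.5, 28.1 and 29.3 CPM. The highest of the 6 HoipA-KO pools, 34.5 CPM, was below the lowest of the 6 WT pools, 42.7 CPM. Nr1d1 was separated in the same way, at 61.5 against 73.3 CPM. How many of all genes are separated over both diets was not counted. Within a single diet, 19.5% of all genes on CD and 23.1% on HFD had every HoipA-KO pool below every WT pool. In the same order as for Nr1d1, group means were 59.4 ± 22.4 CPM for WT mice on CD, 50.5 ± 10.9 on HFD, and then 30.6 ± 3.40 for HoipA-KO mice on HFD and 27.3 ± 7.46 on CD (SD, n = 3). The means of a genotype lay within 1 SD of each other on the 2 diets. On CD Cry2 was 2.43-fold lower in HoipA-KO (log2 fold change -1.28 ± 0.29, 95% interval -1.93 to -0.64, adjusted p = 0.00787). Without WT CD replicate 1 the value was -0.81 (adjusted p = 0.065), and over all 12 libraries it was -1.12 ± 0.31 (adjusted p = 0.0191). On HFD it was -0.72 ± 0.26 (95% interval -1.31 to -0.13, adjusted p = 0.097). DESeq2 called it on HFD (-0.71, adjusted p = 0.0477), as did edgeR when WT CD replicate 2 was left out (-0.72, adjusted p = 0.0474). The exons of Cry2 share 295 of 6320 bases with D930015M05Rik on the opposite strand.

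The period genes encode the PER repressors of the loop. Per1 in WT mice was 113, 59.8 and 82.9 CPM on CD and 84.6, 36.7 and 70.3 CPM on HFD, and in HoipA-KO mice 76.7, 25.6 and 83.6 CPM on CD and 60.7, 71.5 and 43.7 CPM on HFD. Per2 in WT mice was 45.3, 14.9 and 13.5 CPM on CD and 39.0, 13.0 and 23.3 CPM on HFD, and in HoipA-KO mice 31.8, 6.97 and 24.6 CPM on CD and 20.5, 26.9 and 10.95 CPM on HFD. Per3 in WT mice was 69.4, 25.2 and 20.8 CPM on CD and 48.4, 16.2 and 33.1 CPM on HFD, and in HoipA-KO mice 27.3, 6.08 and 25.1 CPM on CD and 31.96, 18.5 and 14.3 CPM on HFD. In all 3 genes the groups overlapped, and of the 12 libraries HoipA-KO CD replicate 2 was the lowest and WT CD replicate 1 the highest. The log2 fold changes on CD were -0.46 ± 0.51 for Per1 (95% interval -1.59 to 0.68, adjusted p = 0.504), -0.50 ± 0.69 for Per2 (95% interval -2.05 to 1.05, adjusted p = 0.594) and -1.27 ± 0.67 for Per3 (95% interval -2.77 to 0.24, adjusted p = 0.161). Without WT CD replicate 1 the value of Per1 was 0.13 and that of Per2 was 0.58. Per3 had -0.60 ± 0.61 on HFD (adjusted p = 0.522).

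Ciart encodes a repressor that binds BMAL1 and is transcribed from E-boxes. In WT mice it was 8.46, 1.21 and 4.10 CPM on CD and 2.90, 0.755 and 1.33 CPM on HFD, and in HoipA-KO mice 2.46, 0.778 and 2.92 CPM on CD and 3.11, 1.76 and 1.31 CPM on HFD. The highest library was 11.2 times the lowest, and all groups overlapped. On CD the log2 fold change was -1.23 ± 0.84 (95% interval -3.12 to 0.65, adjusted p = 0.271), and it was 0.84 without WT CD replicate 1.

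**Figure D2:**
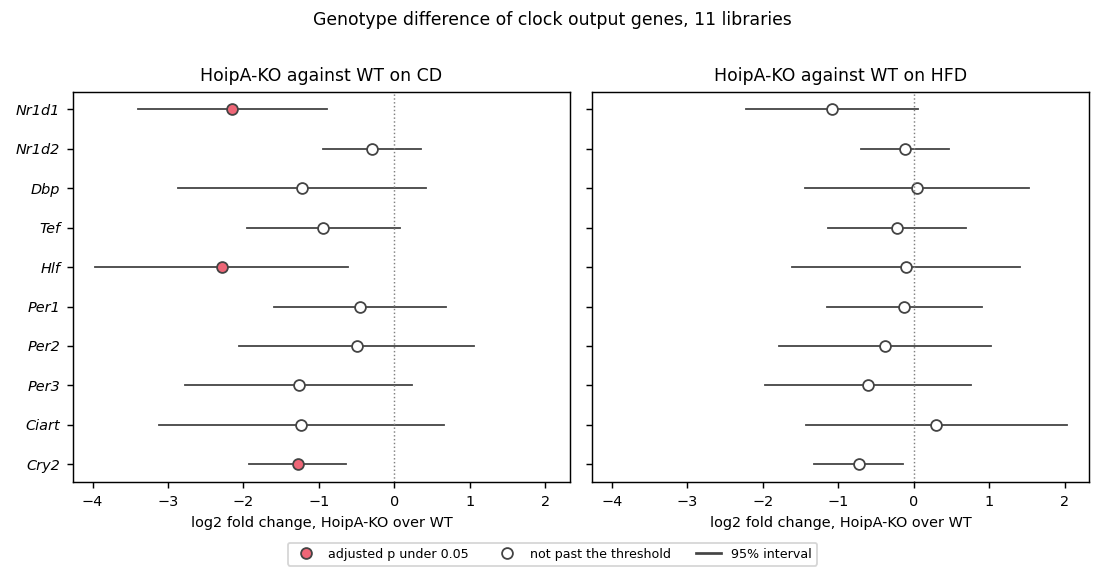
Log2 fold change of HoipA-KO over WT (horizontal axes) for each output gene on CD and on HFD, from the edgeR fit of 11 libraries, with 95% intervals as lines and filled points for an adjusted p under 0.05. On CD the points of Nr1d1, Hlf and Cry2 are filled, and on HFD none is, where the interval of Cry2 ends below 0.

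On HFD, none of the 10 members was called by edgeR, with 1 at an unadjusted p under 0.05 and 1 called by DESeq2, Cry2 in both cases, whereas 11.8% of all genes were called. The estimate was below 0 for 8 of 10, with a median of -0.17 against 0.06 for all genes. Between the diets, HFD against CD in WT gave 0 calls by edgeR, 1 gene at an unadjusted p under 0.05 and 1 call by DESeq2, Hlf in both cases, beside 14.8% of all genes called. The estimate was below 0 for 10 of 10 members, with a median of -0.61 against 0.004 for all genes. Hlf had a log2 fold change of -1.96 ± 0.74 (95% interval -3.62 to -0.29, adjusted p = 0.103, and -2.01 with adjusted p = 0.032 in DESeq2), and Ciart had -1.53 ± 0.85 (adjusted p = 0.244), which was 0.55 without WT CD replicate 1. In HoipA-KO mice, HFD against CD gave estimates between -0.12 and 0.23 for the 10 genes, with 0 called by either tool and 0 at an unadjusted p under 0.05. In that comparison edgeR called 0% of all genes, with 415 genes at an unadjusted p under 0.05 and 7 called by DESeq2. The interaction of genotype and diet called 0 members in edgeR, with 0 at an unadjusted p under 0.05 and 0 in DESeq2, against 3.91% of all genes. Its estimates were above 0 for 10 of 10, with a median of 0.69 against -0.01 for all genes. Hlf had 2.19 ± 1.01 (adjusted p = 0.23). The comparisons on CD, between the diets in WT and of the interaction all use the WT CD libraries, so the same high replicate 1 enters each. The shared signs of the 10 members in these comparisons are therefore not independent results. That the genotype difference is called on CD and not on HFD does not show that it differs between the diets.

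Pools of the same group differed widely in these genes, and in 3 of the 4 groups the pool with the most Arntl and Npas2 was the one in which most outputs were lowest, a pattern that Clock did not follow throughout. In HoipA-KO CD the median ratio of the highest to the lowest pool was 3.49 over the 10 members, against 1.42 over all genes, and 8 of 10 lay above the third quartile of all genes, 1.88. The median ratio of the members was 2.18 in WT HFD against 1.35 for all genes, and 2.14 in HoipA-KO HFD against 1.41. In WT CD it was 3.41 against 2.27, a group in which all genes spread widely, and 3 of 10 members lay above the third quartile of 4.34. The biological coefficient of variation in the edgeR fit was above the median of all genes, 0.279, for 8 of the 10 members, and above the third quartile, 0.423, for 6. Cry2 (0.244) and Nr1d2 (0.243) were below that median, and Ciart (0.664) was the highest member.

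**Figure D3:**
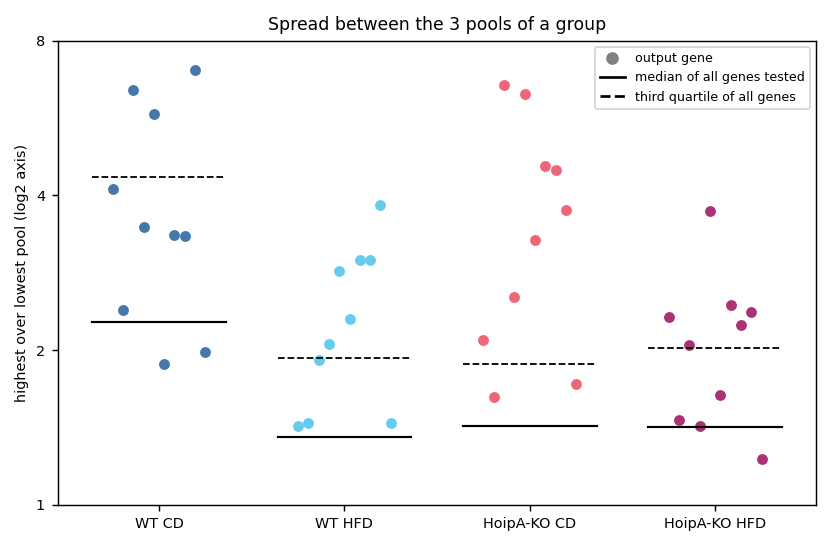
Ratio of the highest to the lowest of the 3 pools of a group (vertical axis, log2 scale) for each output gene as a point, beside the median and the third quartile of all genes tested as lines. The points lie above the median line for 8 members on CD and 10 on HFD in WT mice, and for 10 on CD and 9 on HFD in HoipA-KO mice.

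The same pool was often the low one for many members. HoipA-KO CD replicate 2 was the lowest pool of its group for 10 of 10 members, WT HFD replicate 2 for 8, WT CD replicate 3 for 7 and HoipA-KO HFD replicate 3 for 7. Arntl and Npas2 mostly ran the other way. Arntl in WT mice was 3.69, 11.97 and 8.76 CPM on CD and 6.21, 15.2 and 8.93 CPM on HFD, and in HoipA-KO mice 9.09, 29.9 and 8.31 CPM on CD and 7.86, 13.2 and 13.4 CPM on HFD. Npas2 in WT mice was 0.851, 3.56 and 2.88 CPM on CD and 0.643, 5.06 and 4.16 CPM on HFD, and in HoipA-KO mice 5.90, 13.8 and 4.96 CPM on CD and 2.90, 6.16 and 6.63 CPM on HFD. In WT HFD, HoipA-KO CD and HoipA-KO HFD, the pool with the most Arntl and Npas2 was thus the pool in which most members were lowest. In WT CD it was replicate 2, while 7 members were lowest in replicate 3, the library left out of the tests. At the other end, WT CD replicate 1 had the least Arntl and Npas2 of its group and was the highest pool for 9 members. In HoipA-KO HFD the top values of Arntl lay close together, at 13.4 CPM in replicate 3 and 13.2 CPM in replicate 2. Clock in WT mice was 62.3, 57.9 and 52.6 CPM on CD and 80.4, 82.2 and 67.5 CPM on HFD, and in HoipA-KO mice 46.5, 64.1 and 36.9 CPM on CD and 52.0, 49.4 and 37.8 CPM on HFD. It was thus highest in the pool with the most Arntl in WT HFD and HoipA-KO CD, but in WT CD and HoipA-KO HFD it was highest in replicate 1, where most outputs were highest too, and lowest in replicate 3. The ratio of Dbp to Arntl CPM, both taken within a library, ran from 0.3795 in HoipA-KO CD replicate 2 to 45.95 in WT CD replicate 1. The summed adipocyte markers were 14160 to 14330 CPM in the HoipA-KO CD pools. The mean over the 10 markers on the log2(CPM + 1) scale was 8.91, 8.25 and 9.01 in these pools, and thus lowest in replicate 2, the pool in which all 10 outputs were lowest. That mean was 11.72, 10.61 and 10.03 in WT CD, where replicate 1 was the highest as for 9 of the outputs, and replicate 3 the lowest as for 7. On HFD it was 10.78, 10.68 and 10.22 in WT and 8.54, 7.99 and 8.54 in HoipA-KO, lowest in pools other than those in which most outputs were lowest. The part of adipocyte content, of the cohort and of the hour of collection in these differences between pools was not tested.

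**Figure D4:**
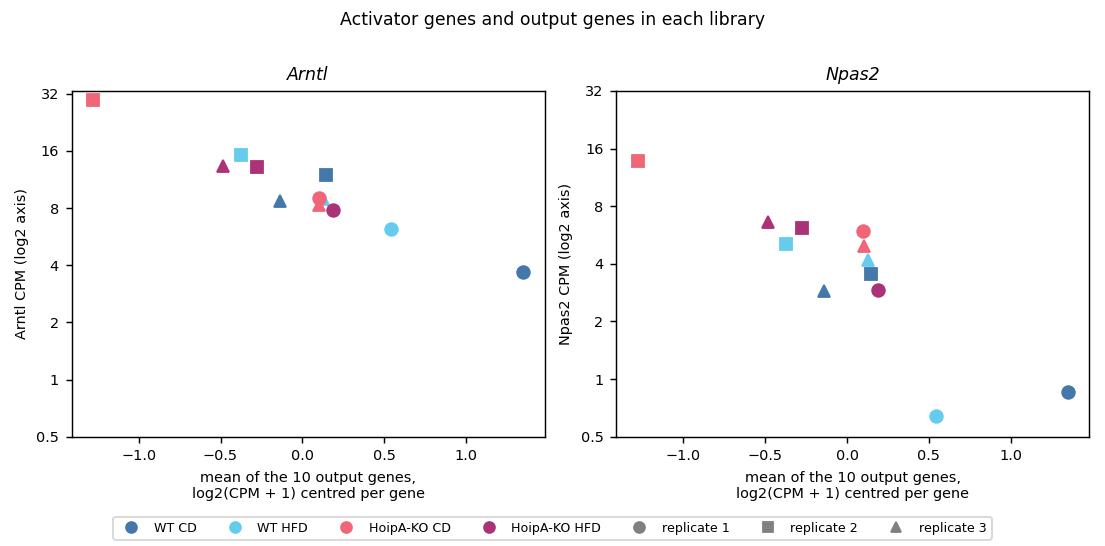
CPM of Arntl and of Npas2 (vertical axes, log2 scale) against the mean of the 10 output genes, as log2(CPM + 1) centred on each gene's mean (horizontal axes), with 1 point for each of the 12 libraries. HoipA-KO CD replicate 2 stands at the upper left, with 29.9 CPM of Arntl and a mean of -1.28, and WT CD replicate 1 at the lower right, with 3.69 CPM and 1.35.

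Among the other genes of the loop, taken from a list of 18 of which 17 were tested, 2 rose and 1 fell in HoipA-KO on CD, where 18.9% of all genes were called higher and 18.8% lower. Their median log2 fold change was 0.19. The genes that rose were Nfil3 (0.75, adjusted p = 0.0492), a repressor that competes with DBP at D-boxes, and Timeless (0.80, adjusted p = 0.0279), which acts at replication forks. The gene that fell was Btrc (-0.55, adjusted p = 0.0139), part of the ubiquitin ligase that marks PER proteins. The call of Nfil3 was lost whichever of the 11 libraries was left out (value 0.57 to 0.95), that of Btrc was lost without WT CD replicate 1, and Timeless lost its call without WT CD replicate 2 or any of the 3 HoipA-KO CD pools. The activators did not pass on CD, with -0.24 for Clock (adjusted p = 0.456), 1.10 ± 0.69 for Arntl (adjusted p = 0.229) and 1.98 ± 0.90 for Npas2 (adjusted p = 0.109, and 1.91 with adjusted p = 0.0476 in DESeq2). Cry1, the other cryptochrome, had 0.33 in 11 libraries (adjusted p = 0.46) and -0.36 in 12. None of the 17 was called on HFD, against 11.8% of all genes. Between the diets in WT, Timeless rose (0.96, adjusted p = 0.0315), where 14.8% of all genes were called.

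Of 10 other genes known for daily rhythms, 3 rose and 1 fell in HoipA-KO on CD, with a median of 0.62. Of all genes, 18.9% were called higher and 18.8% lower there. Lonrf3, a ring finger gene, had 3.65 (adjusted p = 0.00481), but 1.76 with all 12 libraries (adjusted p = 0.14). Klf10, a zinc finger repressor, rose by 1.12 (adjusted p = 0.0135), and Cdkn1a, the cell cycle inhibitor p21, by 1.16 (adjusted p = 0.00207). Usp2, a deubiquitinase gene driven by the clock in many tissues, fell by 2.11 (adjusted p = 0.00616). The 12-library value of Usp2 was -4.26, because WT CD replicate 3 had 330.1 CPM of it against 25.2 and 34.4 CPM in the other WT CD pools. That library also held 3150 CPM of Prm2. The part of testis transcripts in its values of Usp2, Lonrf3 and Cry1 was not tested. None of the 10 was called on HFD, where 11.8% of all genes were called, as were 14.8% between the diets in WT. Between the diets in WT, Lonrf3 (2.65, adjusted p = 0.0361), Cdkn1a (1.35, adjusted p = 0.00617) and Noct (1.24, adjusted p = 0.00745), which encodes nocturnin, were higher on HFD. The Lonrf3 value was 0.80 with all 12 libraries (adjusted p = 0.546), where WT CD replicate 3 had 10.05 CPM against 0.638 and 1.68 CPM in the other WT CD pools, and it lost its call without any of 6 libraries.

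Glucocorticoids and cAMP both act on Per1 and on clock timing, and 15 genes of these responses were read for the same libraries. In HoipA-KO on CD 3 rose and 3 fell, with a median of -0.12. Beside them, 18.9% of all genes were called higher and 18.8% lower. The immediate early genes Fos (2.75, adjusted p = 0.00087) and Junb (2.45, adjusted p = 0.000452) rose, as did the phosphatase gene Dusp1 (1.23, adjusted p = 0.0372). Klf15 (-3.00, adjusted p = 0.00165), Zbtb16 (-1.74, adjusted p = 0.0151) and Fkbp5 (-1.56, adjusted p = 0.015) fell. The calls thus went both ways, and glucocorticoid and cAMP responses were not told apart here. On HFD Junb rose (0.99, adjusted p = 0.0187), and Klf15 (-1.92, adjusted p = 0.0283) and Zbtb16 (-1.85, adjusted p = 0.0277) fell. Between the diets in WT, Fos (1.45, adjusted p = 0.0288) and Junb (1.13, adjusted p = 0.0133) rose. The interaction was called for Junb (-1.46, adjusted p = 0.0331) and, in the list of other rhythmic genes, for Cdkn1a (-1.32, adjusted p = 0.0293). Of all genes, 11.8% were called on HFD, 14.8% between the diets in WT and 3.91% for the interaction. In HoipA-KO, HFD against CD called 0 genes of the 3 lists. Of the 13 list genes called on CD, 6 kept the call whichever library was left out (Lonrf3, Fos, Cdkn1a, Klf15, Usp2 and Junb), and 11 were called with 12 libraries. Fkbp5 and Klf10 lost the call without WT CD replicate 2, Zbtb16 without WT CD replicate 1 or HoipA-KO CD replicate 2, and Dusp1 without any of 6 libraries. On HFD 0 of 3 kept it, between the diets in WT 2 of 6 did (Cdkn1a and Noct), and of the interaction calls 0 of 2 did, each lost without any of 8 libraries.

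**Figure D5:**
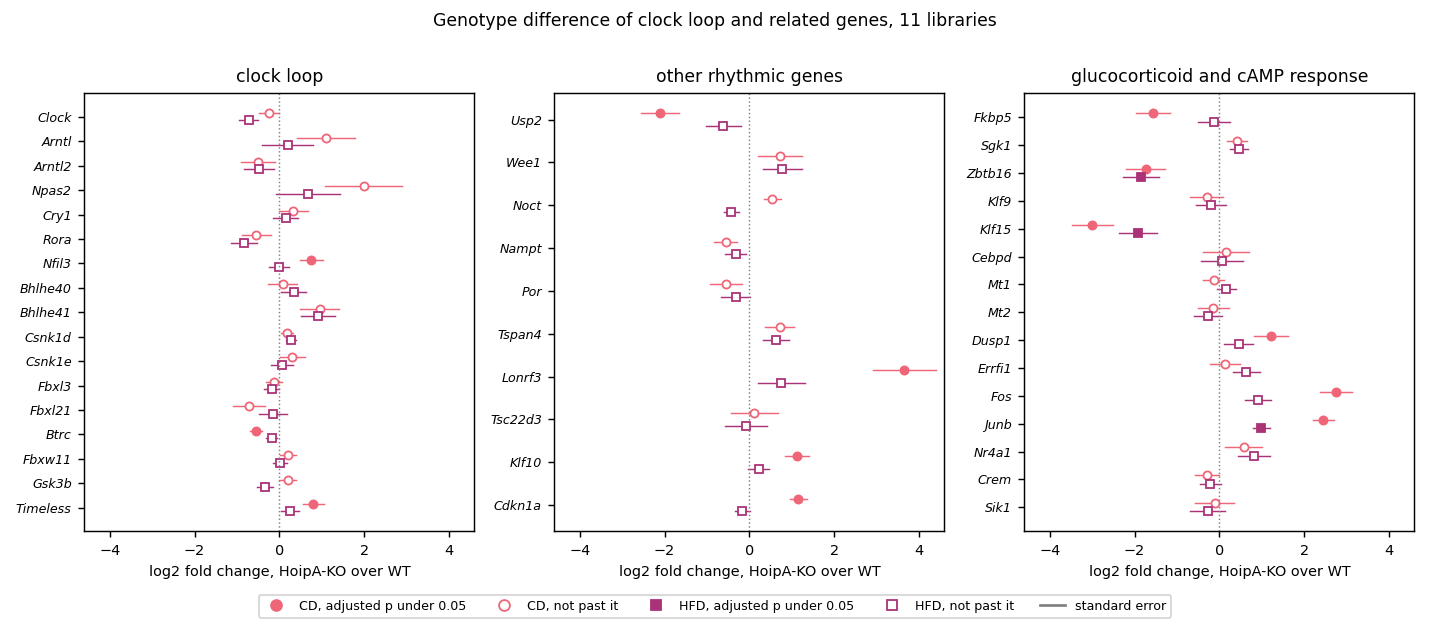
Log2 fold change of HoipA-KO over WT (horizontal axes) on CD (circles) and HFD (squares) for the tested genes of the clock loop, of other rhythmic genes and of the glucocorticoid and cAMP responses, with standard errors as lines and filled marks for an adjusted p under 0.05. Filled marks on CD stand on both sides of 0, from -3.00 for Klf15 to 3.65 for Lonrf3, and 3 marks are filled on HFD.

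Outside the member list, the genes whose profile was nearest to the mean of the 10 over 11 libraries were Phyhd1, Podn, Cuedc1, Gng7 and Gstt2. Nearness was the root mean square distance between centred log2(CPM + 1) profiles, among 11463 genes with a mean of at least 5 CPM. The distance was 0.27 for Phyhd1, a dioxygenase gene, and 0.29 for each of the other 4. The members themselves lay between 0.12 for Tef and 0.71 for Hlf, with Nr1d1 at 0.65. Phyhd1 was 49.6, 27.4 and 17.5 CPM in WT CD and 17.0, 10.7 and 19.8 CPM in HoipA-KO CD. Its highest library, WT CD replicate 1, and its lowest, HoipA-KO CD replicate 2, follow from its choice by nearness.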

How the data were processed

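Reads were trimmed (Trim Galore 0.6.7), aligned (STAR 2.7.10a) and quantified (Salmon 1.5.2) by the authors, who deposited the estimated counts per gene without normalization. The submitters' processing notes name GRCm38. A human assembly is named in the methods, but the gene identifiers are from mouse. The authors' own DESeq2 (1.38.1) tables hold their fold changes, p-values and CPM of 11 libraries, and were not used. The reason for leaving out WT CD replicate 3 is not given in the sources used here.

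Rounded counts that passed filterByExpr entered 1 quasi-likelihood model of the 4 groups in edgeR (4.0.16, R 4.3.3), with TMM factors. Fold changes used a prior count of 0.125, and DESeq2 (1.42.0) served as an alternative. Intervals of 95% came from the model. The steps were tested on simulated data. Where nothing says that pools are separate cohorts, p-values measure the spread between pools, which may be technical. No 2 libraries of the same group were duplicates (r of 0.793 to 0.993 across genes), and pairs from different groups were not checked for this.

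The members and lists were chosen with earlier results of these data known, and 1 gene of the clock loop list is not reported here. All members were named, with list genes past the threshold (at most 8 a list and comparison), the core loop genes Clock, Arntl, Npas2, Cry1 and Nfil3, and the 5 genes with the nearest profile. Thra, Crisp1 and Prm2 were named after their values were seen, and Phyhd1 was picked as the nearest of the 5. Gene positions and shared exons came from GENCODE annotation of GRCm38. Alternatives were other size factors, filters, gene sets, libraries and tests, a block for the replicate number, and leaving out each library.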

Additional observations from a re-analysis of the deposited data

How the results depend on the processing

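The calls on CD rest on few pools. Where the WT CD libraries were replicates 2 and 3, 0 members were called on CD and the log2 fold changes turned to 0.41 for Nr1d2, 0.49 for Dbp, 0.078 for Tef and 0.64 for Per2, while Nr1d1 had -0.81, Hlf -1.81 and Cry2 -0.71. With WT CD replicates 1 and 3 Hlf had -1.31, and by library size it missed the threshold (-2.25, adjusted p = 0.0525). A fit of only the groups compared called 1 (Cry2). When each library was left out in turn, 1 to 3 members were called on CD, and values that changed sign there ranged from -0.68 to 0.22 for Nr1d2, -1.93 to 0.24 for Dbp, -0.87 to 0.13 for Per1, -1.11 to 0.58 for Per2 and -2.05 to 0.84 for Ciart, each turning without WT CD replicate 1. For Ciart between the diets in WT the range was -2.36 to 0.55. Cry1 on CD was -0.36 with 12 libraries, -0.66 with WT CD replicates 1 and 3 and -0.49 with replicates 2 and 3. On HFD 1 member (Cry2) was called with a replicate block, with only the groups compared and in DESeq2, and 0 to 1 when a library was left out. Between the diets in WT, DESeq2 called 1 (Hlf).

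No member value that passed the test changed sign under an alternative that was run. Of the 34 member values given as counts and ranges, 34 changed sign under at least 1 alternative and 0 passed the threshold under any. Of same-numbered pairs across groups, 5 of 15 deviated together (r over 0.1, range -0.48 to 0.37). Of pairs with other numbers, 10 of 30 did (range -0.42 to 0.48). With 2 WT CD pools in the fit, their values mirror each other, as with WT HFD replicate 1 (-0.19 and 0.19), so these pairs are not independent. Of 11 libraries, 5 were closest to one of their own number. Whether a replicate number marks a shared cohort or day was not tested. With the replicate block 3 members were still called on CD, and among the list genes Arntl (1.15, adjusted p = 0.0496) and Npas2 (2.13, adjusted p = 0.0306) passed there. Nfil3, Timeless and Dusp1 on CD, Fos and Timeless between the diets in WT and Junb in the interaction did not pass with the block (adjusted p of 0.0524 to 0.0795). Lonrf3 lost its calls with WT CD replicate 3 in the fit, on CD (1.30 to 1.76) and between the diets in WT (0.34 to 0.80). A fit of only the groups compared could not be made for the interaction. The cause of these changes was not tested.

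Ciart, the member with the fewest counts, had at least 40 in each library. The limits are 3 pools a group, 2 of them in WT CD for the tests, and an hour of collection that the sources used here do not give. Cell content is a further limit, since summed adipocyte markers were lower in every HoipA-KO pool than in any WT pool. Its part in the genotype differences of Nr1d1, Hlf and Cry2 was not tested, nor was that of transcripts from neighbouring organs.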
